A study of Physcomitrium patens with 10 samples.

Results

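The miR529 family was described in the moss Physcomitrium patens, in its leafy shoots (gametophores), before, during and after drying. Its members were chosen by name alone: of the 280 mature miRNA names measured, the 7 that start with ppt-miR529 were taken: ppt-miR529a, ppt-miR529b, ppt-miR529c, ppt-miR529d, ppt-miR529e, ppt-miR529f and ppt-miR529g, written without the species prefix below. Small RNAs were sequenced from plants grown on BCD medium in 5 states, which the sample titles call HD (hydrated), MDH (mild or moderate dehydration), SDH (severe dehydration, desiccated), PRE (partially rehydrated) and FRE (fully rehydrated). Each state has 2 samples by title. The values give 1 level per state, called pooled below because its column is named for the state and not for a sample. How it was formed is not given in the sources used here. No difference below therefore has a replicate check, a standard deviation or a test. No strain, age, transgene or drying time is given in the sources used here. The treatment field of the labels goes against the title in 7 of the 10 samples: in 1 of 2 MDH samples and in both SDH, both PRE and both FRE samples, each of which it places at an earlier stage. The states below are those of the titles and of the value columns, and samples could not be regrouped. Whole gametophores were taken in bulk, so fewer cells that hold a miRNA and less of it per cell cannot be told apart, and miRNA names alone gave no check of the tissue.

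miR529 is a plant miRNA related in sequence to miR156 and miR535. In land plants miR156 and miR529 pair with neighbouring, overlapping sites in mRNAs of SPL (SBP-box) transcription factors, which time developmental transitions, and they lower the output of those genes. In this moss miR156 favours the passage from filamentous protonema to leafy gametophores, in the liverwort Marchantia polymorpha a miR529 acts on an SPL gene of the reproductive transition, and in rice miR529 acts on SPL genes that shape the panicle. Several loci encode one family, and their mature products can be so alike that a short read matches more than one name.

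The 7 names fell into 4 profiles. miR529a, miR529b and miR529c had near-identical levels, as did miR529e and miR529f, while miR529d and miR529g each stood alone. Near-identical means within 5% or 0.5 RPM (reads per 1000000) of each other in every state. How reads that match several names were counted is not given in the sources used here, so the members of a near-identical set cannot be told apart and are treated as 1 observation.

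The abundant profile was that of miR529a, miR529b and miR529c. miR529a was at 1704.7 RPM in HD, 2614.7 in MDH and 2032.4 in SDH, then 1588.1 in PRE and 1468.1 in FRE. It was highest in moderately dried and lowest in fully rewetted gametophores, and its highest level was 1.78 times its lowest. miR529b lay above miR529a in each state, by 18.7 RPM in HD, 8.1 in MDH and 9.2 in SDH, and then 2.5 in PRE and 9.7 in FRE, at most 1.1% of the miR529a level. miR529c stayed within 0.5 RPM of miR529a in HD, MDH, SDH and FRE and within 3 RPM in PRE. Among all 280 names miR529b, the highest of the 3, ranked 41st in HD, 20th in MDH, 26th in SDH, 32nd in PRE and 30th in FRE.

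miR529d held the middle level. It was at 620.3 RPM in HD, 505.8 in MDH and 404.6 in SDH, then 265.5 in PRE and 280.2 in FRE. Each later state thus lay below HD, with PRE and FRE, its lowest states, 14.7 RPM apart. Without a spread between replicates it cannot be said whether that gap, or the order of any other neighbouring levels, exceeds the error.

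miR529e, miR529f and miR529g were scarce. miR529e was at 8.4 RPM in HD, 18.6 in MDH and 11.8 in SDH, then 107.1 in PRE and 26.0 in FRE, and miR529f differed from it by 0.1 RPM in PRE and had the same listed value in the other states. The partially rehydrated state stood far above the other states for this pair, with a highest level 12.8 times the lowest. miR529g was highest in HD, where the pair was lowest, at 41.3 RPM in HD, 13.5 in MDH and 15.8 in SDH, then 13.0 in PRE and 8.3 in FRE. It lay above the pair miR529e and miR529f in HD and SDH and below it in MDH, PRE and FRE.

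**Figure D1:**
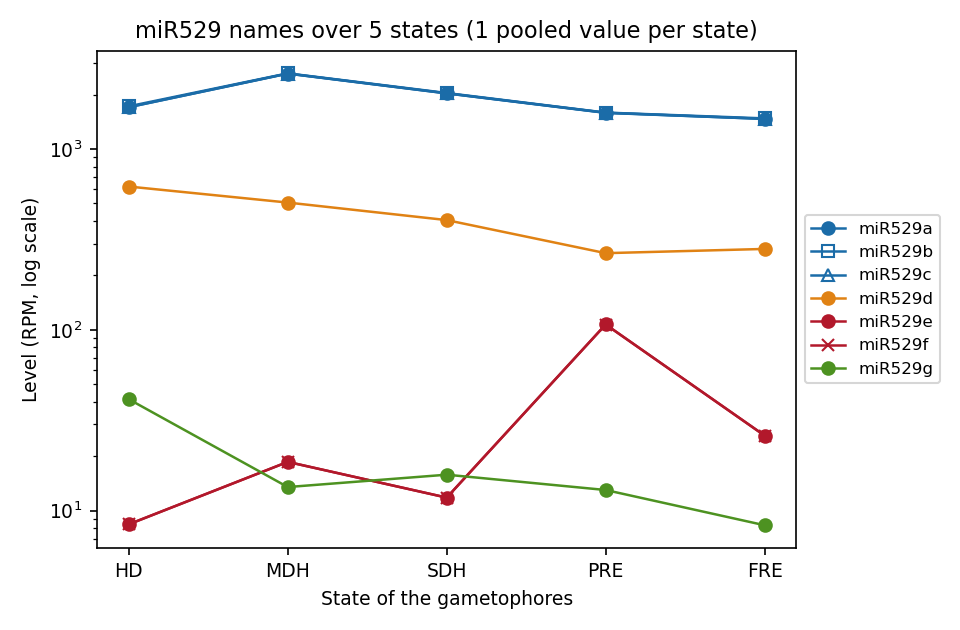
Levels in RPM (log scale) of the 7 miR529 names in the 5 states, 1 pooled value per state and no error bars; overlapping markers are near-identical names. miR529a to miR529c lie highest with a peak of 2614.7 RPM for miR529a in MDH, miR529d declines after 620.3 RPM in HD, and miR529e and miR529f stand out in PRE at 107.1 and 107.0 RPM.

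The range over the states differed between the profiles. Among the 188 names that reached 10 RPM in some state, 12 had a larger ratio of highest to lowest RPM + 1 than miR529e, and 31 had a larger one than miR529g. miR529d, with 99 names above it, lay near the middle, and miR529a, with 151 above it, was among the steadier names. The family thus held both names of wide and names of narrow range, and the wide ranges belonged to scarce members. These ranges use the levels as deposited and were not recomputed with the states set level for the typical name. Such scaling widens the difference of miR529a between MDH and HD from 0.62 to 0.97 in log2, so its steadiness holds for the deposited levels only.

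A miRNA is called higher or lower below where log2((RPM + 1)/(RPM + 1)) of 2 states is at least 1 in size, which is 2-fold, with at least 3 RPM in the higher state. All 7 names reached that level in each comparison. Fold values are plain ratios of RPM, and log2 values are differences on the log2(RPM + 1) scale. The comparisons with HD share the 1 HD value of each name, so a name that is low or high in HD moves in all of them. Their values are given side by side and are not independent.

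In moderately dehydrated gametophores the abundant miR529a, miR529b and miR529c stood above the hydrated level. miR529a was at 2614.7 RPM in MDH, against 1704.7 RPM in HD, 1.53-fold higher with a log2 fold change of 0.62, short of 2-fold. miR529e and miR529f were 2.21-fold higher, at 18.6 RPM in MDH and 8.4 RPM in HD, and miR529g was 3.06-fold lower, at 13.5 RPM in MDH and 41.3 RPM in HD. miR529d lay 1.23-fold below HD. Of the 7 names 2 were called higher, against 11.0% of the 209 names tested, and 1 was called lower, against 24.4%. With near-identical names taken once, the median log2 fold change was 0.16 over the 4 profiles and -0.49 over the 143 profiles tested. Here and below, counts of 1 or 2 among 7 names in 4 profiles are too few to set the family apart from such shares.

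Median-of-ratios scaling, which sets the states level for the typical name, moved the median of all tested names by 0.35 in MDH against HD. With it the log2 fold change was 0.97 for miR529a, 0.06 for miR529d, 1.39 for miR529e and -1.21 for miR529g. The same 3 names passed 2-fold, and miR529d turned its sign.

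In desiccated gametophores 1 profile passed 2-fold against HD. miR529a was 1.19-fold above HD, at 2032.4 RPM in SDH and 1704.7 RPM in HD, and miR529e was 1.4-fold above it, at 11.8 RPM in SDH and 8.4 RPM in HD. miR529d was 1.53-fold below HD, at 404.6 RPM in SDH and 620.3 RPM in HD. miR529g alone passed 2-fold, at 15.8 RPM in SDH and 41.3 RPM in HD, 2.61-fold lower. This is 1 name lower of 7, against 13.5% of the 215 names tested, and none higher, against 18.6%. The median log2 fold change was -0.18 over the 4 profiles, against 0.0087 over the 149 profiles tested.

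In partially rehydrated gametophores 2 profiles lay below HD by over 2-fold and 1 far above it. miR529e was at 107.1 RPM in PRE, against 8.4 RPM in HD, 12.8-fold higher with a log2 fold change of 3.52. miR529d was 2.34-fold lower, at 265.5 RPM in PRE and 620.3 RPM in HD, and miR529g was 3.18-fold lower, at 13.0 RPM in PRE and 41.3 RPM in HD. The 3 abundant names stayed within 1.08-fold of HD, and with median-of-ratios scaling miR529a and miR529c turned their sign, at log2 fold changes of 0.01 for both. The count was 2 of 7 names higher, against 21.6% of the 213 names tested, and 2 lower, against 18.8%. The median was -0.66 over the 4 profiles and -0.19 over the 147 profiles tested, and the scaling moved the median of all names by 0.12.

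In fully rehydrated gametophores the same 4 names passed 2-fold in the same directions. miR529e was at 26.0 RPM in FRE, against 8.4 RPM in HD, 3.1-fold higher, a smaller ratio than in PRE. miR529g was at 8.3 RPM in FRE, against 41.3 RPM in HD, 4.98-fold lower, the largest ratio seen for this name against HD. miR529d was 2.21-fold lower, at 280.2 RPM in FRE and 620.3 RPM in HD, and miR529a was 1.16-fold below HD, at 1468.1 RPM in FRE and 1704.7 RPM in HD. Of the 7 names 2 were higher, against 15.3% of the 209 names tested, and 2 lower, against 12.0%. The median was -0.68 over the 4 profiles and -0.15 over the 142 profiles tested, and here too scaling moved the median of all names by 0.12.

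**Figure D2:**
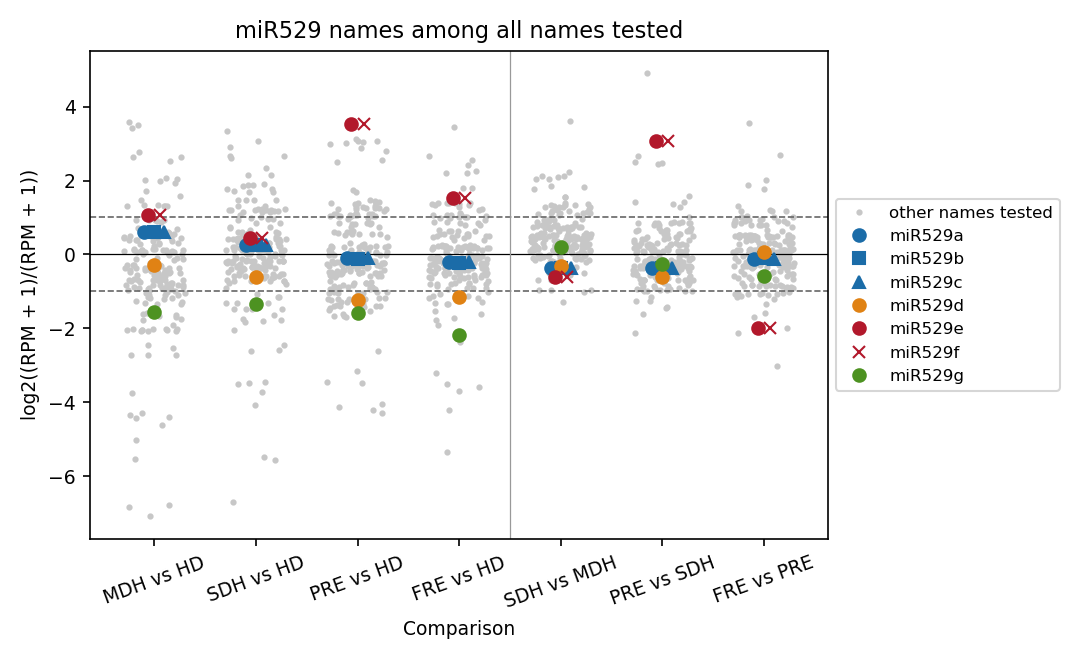
log2((RPM + 1)/(RPM + 1)) of the 7 miR529 names (coloured) and of the other names tested (grey) in 7 comparisons, with dashed lines at 2-fold; points are single pooled values. miR529e and miR529f reach 3.52 in PRE against HD and lie below the lower line in FRE against PRE, miR529g lies below the lower line in the 4 comparisons with HD, and miR529a to miR529c lie within the lines throughout.

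On further drying the members stayed under 2-fold. None of the 7 names passed 2-fold in SDH against MDH, where 16.4% of 207 names were higher and 0.966% lower. miR529a was at 2032.4 RPM in SDH and 2614.7 RPM in MDH, 1.29-fold lower, with a log2 fold change of -0.36 that became -0.74 with median-of-ratios scaling. The median of all tested names was 0.39 in this step and the scaling moved it by -0.40. miR529g was at 15.8 RPM in SDH and 13.5 RPM in MDH, a log2 fold change of 0.21 that turned to -0.14 with scaling.

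On the first step of rewetting miR529e and miR529f were the members that passed 2-fold. miR529e was at 107.1 RPM in PRE, against 11.8 RPM in SDH, 9.08-fold higher. Among all 211 names tested 6.16% were higher and 3.32% lower in this step. miR529d was 1.52-fold lower, at 265.5 RPM in PRE and 404.6 RPM in SDH, and miR529a 1.28-fold lower, at 1588.1 RPM in PRE and 2032.4 RPM in SDH. The median log2 fold change was -0.31 over the 4 profiles and -0.19 over the 145 profiles tested, and scaling moved the median of all names by 0.15.

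From partial to full rehydration the pair was lower again. miR529e was at 26.0 RPM in FRE, against 107.1 RPM in PRE, 4.12-fold lower, in a step where 9.81% of 214 names were lower and 7.01% higher. miR529g was 1.57-fold lower, at 8.3 RPM in FRE and 13.0 RPM in PRE, and miR529d was 1.06-fold higher, at 280.2 RPM in FRE and 265.5 RPM in PRE. miR529a lay 1.08-fold below PRE. As a ratio the difference between the 2 rehydrated states was larger for miR529e and miR529f than for the other 5 names. In RPM the difference, FRE minus PRE, was -120 for miR529a and -81.1 for miR529e.

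The authors' deposited table marks a miRNA where its fold change passes 2-fold with p under 0.05. In the authors' deposited table miR529e, miR529f and miR529g are marked in MDH against HD, miR529g in SDH, and those 3 with miR529d in PRE and in FRE. Over the 4 comparisons with HD these marks and the calls above coincided in 28 of 28 cases. Both rest on the same pooled levels and a 2-fold cut, and every p listed for a miR529 name is under 0.05. The overlap is therefore no independent check of the calls. The marks covered 35.3% of 235 listed names in MDH, 34.1% of 232 in SDH, 41.9% of 234 in PRE and 27.0% of 233 in FRE. For miR529e in SDH the authors' deposited table lists p = 0.0168 with no mark, since the fold falls short of 2-fold. The test behind these p-values is not named, and every state carries the same total of 10000000 in the authors' deposited table. For miR529a in PRE, 1.07-fold below HD, the authors' deposited table lists p = 1.31e-10, so a small p there does not mark a large difference. Each p-value stands beside the pooled level of each state and that constant total, with no spread between replicates listed. The p-values are therefore not read here as a check across replicates.

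Ratios between members within a state do not depend on the scaling of the state. miR529d stood at 36.4% of the miR529a level in HD and at 19.3%, 19.9%, 16.7% and 19.1% in MDH, SDH, PRE and FRE. The lower ratio was thus present in MDH and stayed within a narrow band in the 3 later states. miR529g stood at 2.42% of miR529a in HD and at 0.516%, 0.777%, 0.819% and 0.565% in MDH, SDH, PRE and FRE, again with HD alone at the high level. miR529e stood at 0.493% of miR529a in HD, 0.711% in MDH and 0.581% in SDH, then 6.74% in PRE and 1.77% in FRE. Against miR529d, its ratio was 1.35% in HD, 3.68% in MDH and 2.92% in SDH, then 40.3% in PRE and 9.28% in FRE.

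**Figure D3:**
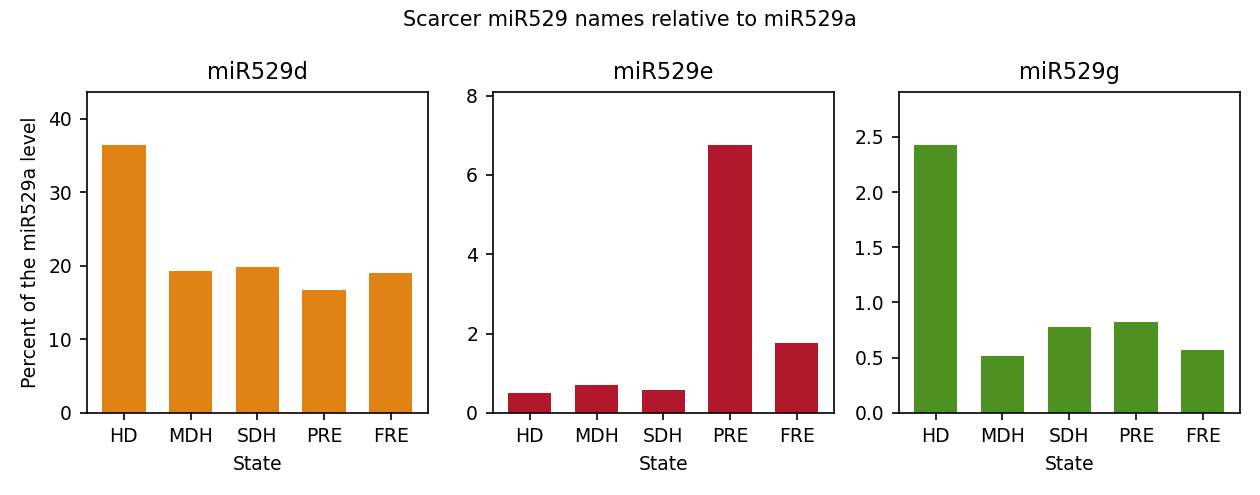
Level of miR529d, miR529e and miR529g as a percent of the miR529a level in each of the 5 states; bars start at 0, axes differ, and each bar is 1 pooled value. miR529d and miR529g are highest relative to miR529a in HD, at 36.4% and 2.42%, and miR529e in PRE, at 6.74%.

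Summed over its 7 names the family was at 5810.7 RPM in HD, 8409.1 in MDH and 6550.5 in SDH, then 5256.4 in PRE and 4754.3 in FRE. This sum may count shared reads more than once. With 1 value per profile it was 2381 RPM in HD, 3155 in MDH and 2468 in SDH, then 1973 in PRE and 1786 in FRE. The abundant profile made up 71.9% of this in HD and 83.0%, 82.5%, 80.5% and 82.4% in MDH, SDH, PRE and FRE, so the family sum followed miR529a to miR529c. miR529d held 26.1% in HD and 16.0%, 16.4%, 13.5% and 15.7% in the later states. miR529e and miR529f together, taken once, held 5.42% in PRE and 0.353% in HD, so their 12.8-fold difference in PRE concerned a small share of the family total.

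Relative to all 280 names, copies included, the family took 0.699% of the summed RPM in HD, 1.67% in MDH and 1.04% in SDH, then 1.29% in PRE and 0.831% in FRE. With 1 value per near-identical set the share was 0.528% in HD, 1.10% in MDH and 0.705% in SDH, then 0.870% in PRE and 0.572% in FRE, lower throughout and again highest in MDH. The summed level of all names was between 407334 and 629248 RPM in the 4 later states, against 831487 RPM in HD. The share of the family in PRE therefore lay above that in HD. Its summed level in PRE lay below, with a log2 fold change of -0.14. Copies included, the miR535 names summed to 481066 RPM in HD and 181887 in PRE. The miR156 names summed to 132071 RPM in HD and 52236 in PRE. The share of miR529 thus depends heavily on the levels of these related families.

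The related families miR156 and miR535 were far more abundant and moved differently from miR529a. miR156a was at 47234 RPM in HD, 31565 in MDH and 37437 in SDH, then 19250 in PRE and 21727 in FRE, and miR156c was near-identical to it. miR156b was at 37600.5 RPM in HD, 19665 in MDH and 26391 in SDH, then 13734 in PRE and 12903 in FRE. miR156a and miR156b were thus highest in HD, whereas miR529a peaked in MDH. The 3 miR156 names form 2 profiles. Neither passed 2-fold in MDH or SDH against HD, and both were lower in PRE, where 18.8% of all names tested were lower, and in FRE, where 12.0% were. With median-of-ratios scaling the log2 fold change of miR156a in FRE, -1.12, came to lie at the threshold itself. The 4 miR535 names also form 2 profiles. Both were lower in MDH, where 24.4% of all names tested were lower, and in PRE, and neither passed 2-fold in SDH or FRE. The shares of all names given for miR156 and miR535 count near-identical names separately. They are thus not in the same unit as the profiles. miR535a was at 54655 RPM in MDH and 117173 RPM in HD, with a log2 fold change of -1.10 that became -0.75 with scaling, and no miR535 name passed 2-fold in MDH under that setting.

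The ratio of miR529a to miR156a was 3.61% in HD, 8.28% in MDH and 5.43% in SDH, then 8.25% in PRE and 6.76% in FRE, so it was higher in the 4 later states than in HD. That of miR529d to miR156a lay between 1.08% in SDH and 1.6% in MDH, with 1.31% in HD, 1.38% in PRE and 1.29% in FRE. The second ratio thus lay on both sides of its HD value in the later states, and the first above it in each of them. Small RNAs differ in how well adaptors join them and PCR copies them, so these ratios are read between states and not as molar proportions.

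**Figure D4:**
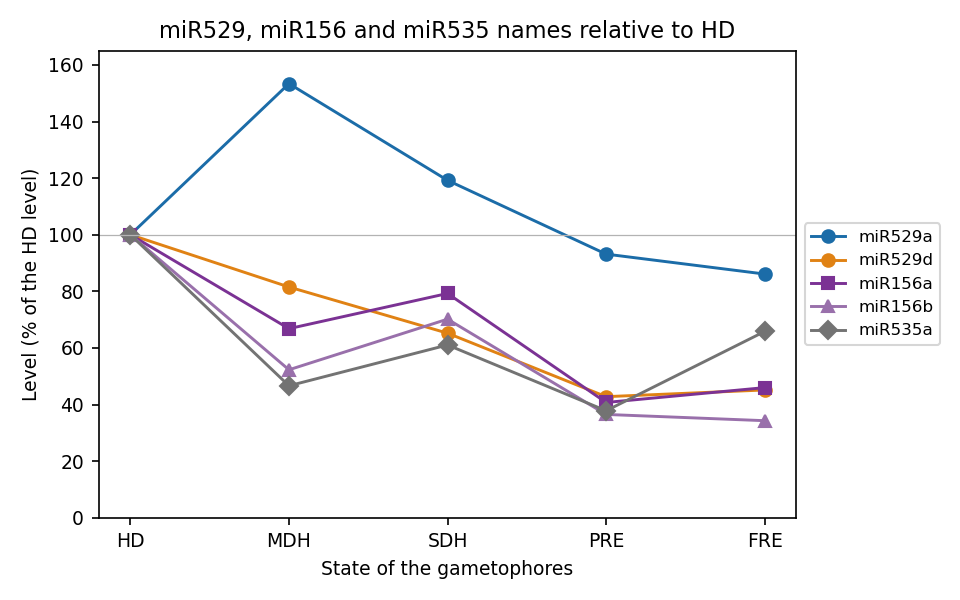
Levels of miR529a, miR529d, miR156a, miR156b and miR535a in the 5 states as a percent of the level in HD (1 pooled value per state, no error bars). miR529a is at 153% of HD in MDH and at 86.1% in FRE, while miR529d, miR156a and miR156b end at 45.2%, 46.0% and 34.3% in FRE and miR535a at 65.8%.

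Names outside the family with the most similar course were found by the root mean square difference between log2(RPM + 1) profiles over the 5 states, each centred on its own mean, among 181 names that reached 10 RPM. For miR529a to miR529c the closest was miR894, with a difference of 0.14, followed by miR1028c-3p with 0.18 and miR536c with 0.25, against a median of 0.60 over all candidates. miR894 was at 720.3 RPM in HD, 1185 in MDH and 835.5 in SDH, then 723.3 in PRE and 797 in FRE. It had the same peak in MDH. miR1028c-3p was far scarcer, at 15.8 RPM in HD and 24.1 in MDH. For miR529d the closest were the near-identical miR156a and miR156c, both with 0.18, and then miR166l with 0.19, whose family targets HD-ZIP III genes of leaf and vascular patterning. That family did not move as 1: in PRE against HD the log2 fold change was -1.21 for miR166l and -0.50 for miR166a. The median difference from miR529d over all candidates was 0.74. In SDH against MDH miR529d was lower, with a log2 fold change of -0.32, and miR156a was higher, with one of 0.25. With median-of-ratios scaling both were lower in that step, at -0.70 for miR529d and -0.13 for miR156a.

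For miR529e and miR529f the closest name was miR903, with a difference of 0.36, against a median of 1.37. Next were miR1076-5p with 0.59 and miR2080 with 0.73. miR1076-5p was scarce, at 1.4 RPM in HD and 16.8 in PRE, so the added 1 RPM weighs on its course. miR903 was at 104.4 RPM in HD, 191.2 in MDH and 93.6 in SDH, then 597.2 in PRE and 257.6 in FRE, so it too was highest in PRE and next highest in FRE. For miR529g the closest were miR156b with 0.32, miR900-5p with 0.38 and miR156c with 0.43, against a median of 0.82. Within the family, miR529d lay 0.39 from the abundant profile and 0.45 from miR529g, and the pair lay between 1.36 and 1.73 from the other 3 profiles. miR529d and miR529g were thus each closer to a miR156 name than to any other profile of their own family. The outside names are the closest of 181 candidates, set against only 3 other profiles of the family. Names of other families were closer too, miR166l at 0.19 from miR529d and miR900-5p at 0.38 from miR529g. The comparison therefore does not single out miR156.

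**Figure D5:**
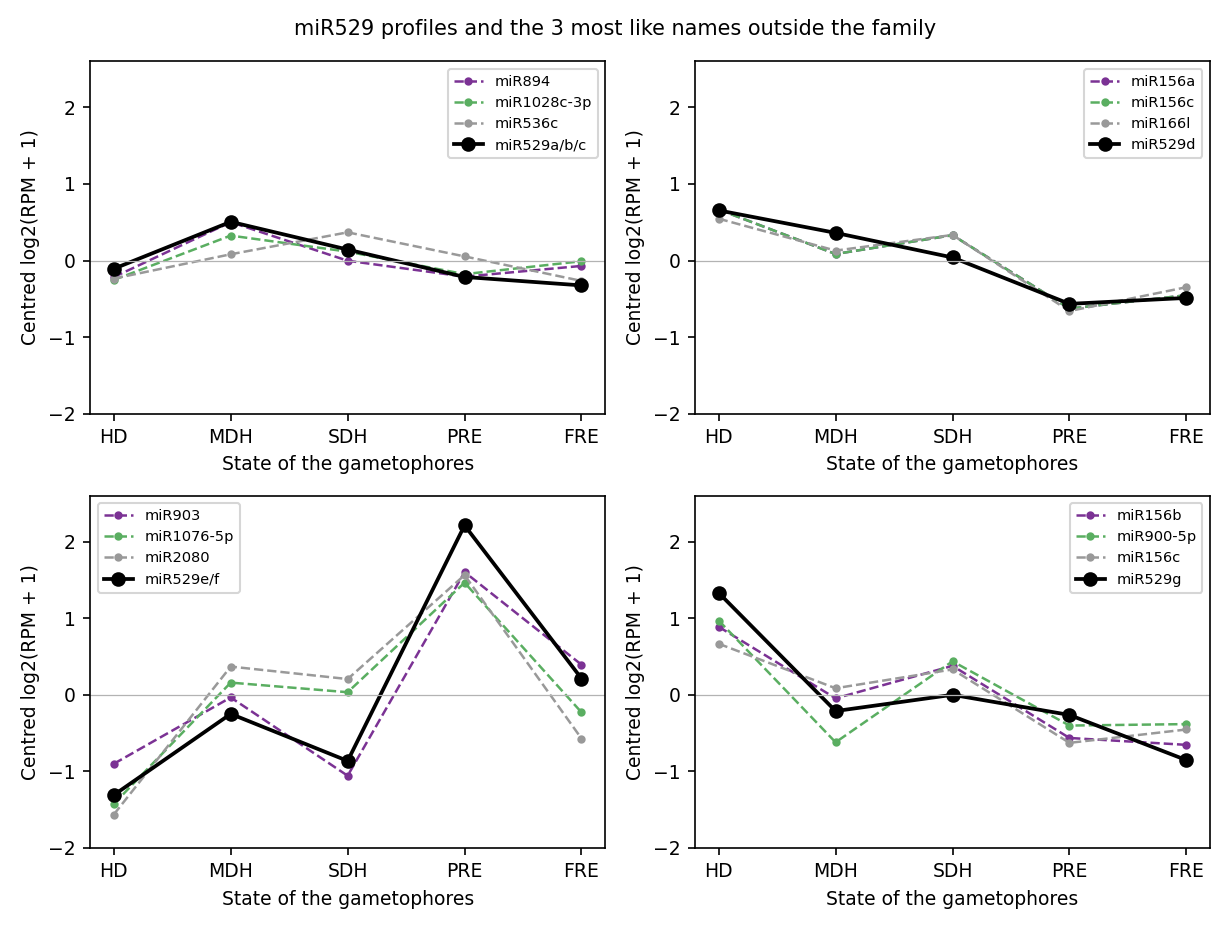
Centred log2(RPM + 1) over the 5 states for the 4 miR529 profiles (black) and, dashed, the 3 names outside the family closest to each. miR529d is closest to miR156a and miR156c, at a root mean square difference of 0.18, though in SDH it lies below its MDH level and they lie above theirs. miR529e and miR529f share with miR903, at 0.36, a highest level in PRE.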

How the data were processed

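Small RNAs of 18 to 30 nt were enriched from total RNA, ligated to adaptors, reverse transcribed, amplified and sequenced, per the labels' protocols. Not given in the sources used here are the aligner, genome build, miRNA reference, read assignment and pooling of replicates. The levels were deposited by the authors in RPM, in 4 tables that share identical HD values and were joined by name. In the 4 comparison tables, per the file headers, the authors deposited a log2 fold change, a p-value and an expressed column, treated as a score because it is 10 times the RPM on a constant total of 10000000. Depth per library is therefore unknown: RPM values are rounded to 0.1 and show no steps of whole reads, so no interval or floor was computed.

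Groups come from the titles. A test across libraries was foreseen if libraries were separate. With pooled values none was run, and folds are descriptive. Computed here, with Python 3.11.15, pandas 2.3.3 and numpy 2.4.6, were log2((RPM + 1)/(RPM + 1)), calls at 2-fold with at least 3 RPM in the higher state, sums, ratios and profile differences. Named are all miR529 names, miR156 and miR535 as related families, and, for each miR529 profile, the 3 most similar names with at least 10 RPM. Members, lists and rules were chosen with earlier results of these data known. Alternatives were a pseudocount of 0 or 10 RPM, no minimum or 10 RPM, near-identical names taken once, and median-of-ratios scaling. The last 2 were added for miR156 and miR535 after seeing the data. Medians over profiles take near-identical names once. Medians of all tested names, their shifts by scaling and medians over candidates keep every name.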

Additional observations from a re-analysis of the deposited data

How the results depend on the processing

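No paired analysis was possible because the values are 1 pooled level per state, so the replicate numbers 2 and 3 of the titles, the fits without each replicate and the replicate block could not be run. With a pseudocount of 10 RPM the miR529 names past 2-fold numbered 1 in place of 3 in MDH against HD, 0 in place of 1 in SDH, and 2 in place of 4 in FRE. These calls rest on names of low level: miR529e and miR529f had log2 fold changes of 0.64 in MDH and 0.97 in FRE under that setting, and miR529g one of -0.99 in SDH. In PRE against HD miR529e kept its call, at 2.67 in place of 3.52. With near-identical names counted once, 1 profile in place of 2 names passed 2-fold in PRE against SDH and in FRE against PRE, 2 in place of 3 in MDH against HD, and 3 in place of 4 in PRE and in FRE against HD. The miR535 names past 2-fold in MDH against HD numbered 0 with median-of-ratios scaling in place of 4, an alternative added after seeing the data. A pseudocount of 0, no minimum, a minimum of 10 RPM and median-of-ratios scaling left the counts of miR529 names past 2-fold as they were in all 7 comparisons. Over single names, 143 of 147 alternative values kept their sign, and the 4 that did not are miR529d in MDH against HD, miR529a and miR529c in PRE against HD and miR529g in SDH against MDH, all with median-of-ratios scaling. The log2 fold change of the family sum kept its sign throughout, and in MDH against HD was 0.53, or 0.41 with 1 value per profile and 0.88 with scaling. Depth is unknown, so the counting error of levels near 10 RPM could not be given.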
